A study of Danio rerio with 18 samples.

Results

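Solute carriers are the membrane proteins of the slc families, which move ions, sugars, amino acids, vitamins, metals and metabolites across the plasma membrane or the membranes of organelles. The set described here holds 175 RefSeq accessions of 172 genes in 44 slc families. They are the accessions with a zebrafish symbol that begins with slc and a digit, and whose average over the control libraries reached 10 CPM (the count over the library total, times 1000000). They were taken from 396 solute carrier accessions among 32820 accessions counted in all, and the other 221 fell under the threshold. Because the control level chose the members, that level is a description here, and only the difference between the groups was tested. Just inside the threshold were slc22a23, at 7.44 CPM in actl6a and 10.05 CPM in ctrl libraries, and slc2a3b, at 16.4 CPM in actl6a and 10.41 CPM in ctrl libraries. Just outside were slc4a1a, at 15.1 CPM in actl6a and 9.51 CPM in ctrl libraries, and slc22a13a, at 4.88 CPM in actl6a and 9.23 CPM in ctrl libraries.

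The study measured RNA of pronephric ducts, the tubes of the embryonic zebrafish kidney, at 30 hours after fertilisation. In 8 libraries, called actl6a below, the embryos had received a morpholino (an antisense oligonucleotide) that blocks translation of actl6a, a protein shared by several SWI/SNF-type chromatin remodellers. In 10 libraries, called ctrl, they had received a standard control morpholino. Embryos of both groups were otherwise wild type, carried a transgene with GFP under the promoter of atp1a1a.4 (a Na,K-ATPase subunit of the pronephros), were injected at the 1-cell stage, and were treated with DTT and collagenase before duct fragments were picked by their fluorescence. The labels do not say whether a library holds fragments of 1 embryo or of several, or whether the libraries of a group came from separate injections, so the p-values measure the spread between libraries and that spread may be technical. Each group has a count table of its own, so any difference in library preparation or in the sequencing run and the morpholino cannot be told apart. A morpholino embryo is a transient knockdown of the whole animal, and a translation block leaves the transcript in place.

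In the vertebrate nephron, proximal cells take back sugars, amino acids, phosphate and organic acids by sodium-coupled carriers of the slc5, slc6, slc34 and slc13 families. Distal cells reclaim salt through slc12 cotransporters, and slc12a1 and slc12a3 mark the early and the late distal segment of the zebrafish pronephros. Other slc families serve every cell, such as slc25 in the inner mitochondrial membrane, slc35 in the Golgi and slc30 and slc39 in zinc handling.

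Total counts ran from 1731521 to 3393310 in actl6a libraries and from 1564673 to 3301873 in ctrl libraries, so a count of 0 allows up to 3 counts, or 0.884 to 1.92 CPM, as counting error only. The actl6a transcript was 131.7 ± 8.91 CPM in actl6a libraries (SD, n = 8) and 110.1 ± 12.97 CPM in ctrl libraries (SD, n = 10), and the difference passed edgeR's quasi-likelihood test (log2 fold change 0.34 ± 0.0887 SE, adjusted p = 0.0137). Because the morpholino blocks translation, the transcript does not check the knockdown. The duct identity of the libraries was checked with atp1a1a.4, which was 1330 ± 146 CPM in actl6a libraries and 1624 ± 310 CPM in ctrl libraries (SD, n = 8 and n = 10). Of 8 tested genes on a list of pronephric duct markers, 0 were called changed in edgeR's test, with 0 at an unadjusted p under 0.05 and 0 by DESeq2, and their summed level was 2576 to 3461 CPM in actl6a libraries and 3070 to 4630 CPM in ctrl libraries. Markers of some other tissues also moved with the groups: the summed yolk and liver list was 122.4 to 334.4 CPM in actl6a libraries and 1.28 to 105.2 CPM in ctrl libraries, and 6 of 6 tested genes were higher. Of 9 counted genes on that list, ttr, fabp10a and vtg2 did not pass the filter on low counts. Their means were 0.205, 0.353 and 0.123 CPM in actl6a libraries and 1.23, 0.341 and 0 CPM in ctrl libraries. The blood list had a median log2 fold change of 1.36 with 0 of 11 genes called (1 at an unadjusted p under 0.05, 0 by DESeq2). The epidermis list had 2 of 8 genes higher, and the neural list had 2 of 5 higher. The muscle list had a median log2 fold change of 0.36 with 0 of 9 genes called (0 at an unadjusted p under 0.05, 0 by DESeq2). Its summed level had a median of 913 CPM in actl6a libraries and 2265 CPM in ctrl libraries. Of carriers known from other tissues, 0 of 5 were called (1 at an unadjusted p under 0.05, 0 by DESeq2). The 1 tested ionocyte gene was not called. Over all tested accessions 7.9% were higher. A marker low in ctrl libraries passes the filter on low counts more readily when it is high in actl6a libraries. The counts of called markers can therefore lean to the higher side. The part of yolk and liver RNA in the results below was not tested, and muscle, blood, epidermis and neural markers entered 1 alternative fit.

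Most solute carriers of the duct did not pass the test between actl6a and ctrl libraries, which does not show that they were unchanged. All 175 were tested, 10 were higher, 16 were lower and 149 were not called at an adjusted p under 0.05 (edgeR, quasi-likelihood F-test, p-values adjusted by Benjamini and Hochberg over 14462 accessions). That is 14.9% of the members, against 16.4% of all tested accessions and 18.4% of the 11036 tested accessions that also reach 10 CPM in ctrl. By direction, 5.71% of the members were higher, against 7.9% of all tested, and 9.14% were lower, against 8.52%; among tested accessions at 10 CPM or more in ctrl the shares were 7.76% and 10.6%. The median log2 fold change of the members was 0.0054, with 89 values above 0 and 86 below, and the median of all tested accessions was 0.011. The median absolute log2 fold change was 0.262 in the members and 0.267 in the tested accessions at 10 CPM or more in ctrl.

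These counts depended on what else entered the model. With library totals in place of TMM factors, 6 members were higher and 20 lower, and the same scaling gave 852 higher and 1608 lower over all accessions, against 1143 and 1232 with TMM. With scores of muscle, blood, epidermis and neural markers as covariates, 0 members were higher and 1 was lower, and 81 accessions were called in all. The lists behind these scores had median log2 fold changes above 0, so lost calls and lost power cannot be told apart in that fit.

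Together the members took 1.30 ± 0.0745% of the counts in actl6a libraries (SD, n = 8) and 1.39 ± 0.0632% in ctrl libraries (SD, n = 10). In ctrl libraries 34 members had a mean of 10 to 20 CPM, 51 had 20 to 50, 56 had 50 to 100, 33 had 100 to 1000, and 1 had more. CPM counts reads and is not divided by transcript length, so a level is compared here between libraries and not between genes. The member with the largest share of the reads was slc25a5, the ADP/ATP translocase of mitochondria, with 15.4% of all reads on the members in ctrl libraries. It ran from 1740 through a median of 2152 to 2966 CPM in actl6a libraries and from 1751 through 1997 to 3278 CPM in ctrl libraries, and the groups overlapped almost entirely (log2 fold change 0.14 ± 0.150 SE, adjusted p = 0.573, edgeR; 0.24 without ctrl 4 and ctrl 9).

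**Figure D1:**
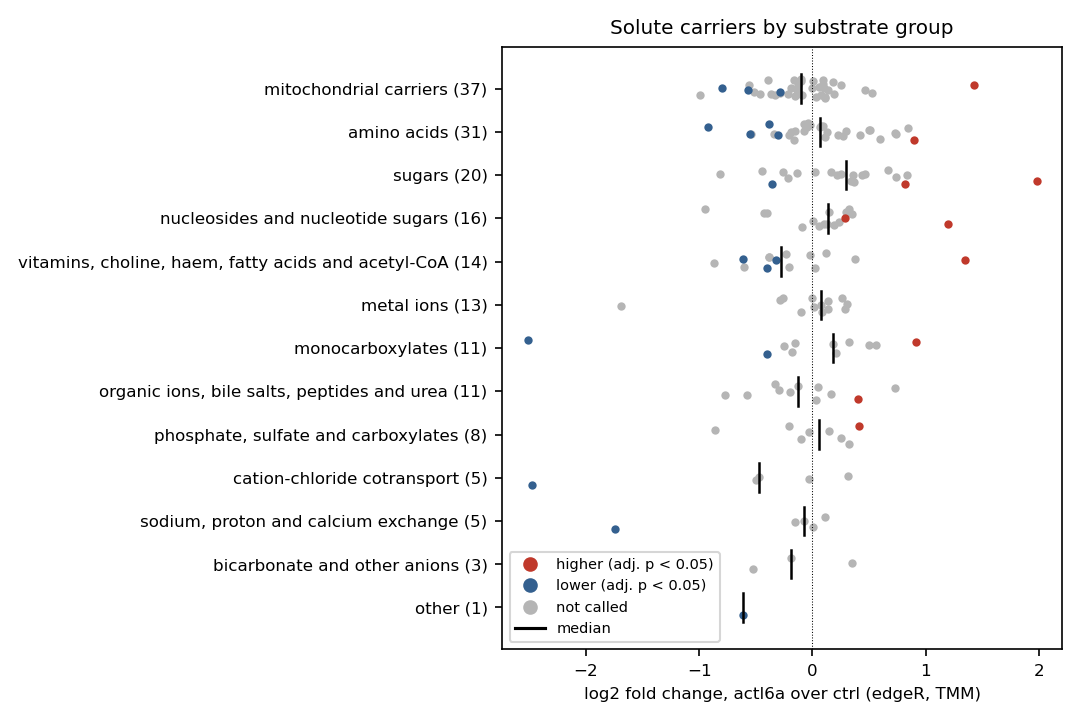
Log2 fold change of each of the 175 solute carrier accessions, actl6a over ctrl (edgeR with TMM factors), by substrate group with the number of members in brackets. Each point is an accession, red called higher, blue called lower, grey not called, and the black bar is the group's median; most points lie within 0.5 of 0, and the called points are spread over 11 of the 13 groups.

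Before the single genes, the ctrl libraries themselves need description, because ctrl 4 and ctrl 9 stood apart from the other 8. In 36 members these libraries held the 2 lowest of the 10 ctrl values, and in 21 members they held the 2 highest. Among the other 44 pairs of ctrl libraries the members with the 2 lowest values numbered 0 to 11, and those with the 2 highest numbered 0 to 12. Among the 28 pairs of actl6a libraries the numbers were 1 to 21 and 0 to 22. The examples given for ctrl 4 and ctrl 9 were chosen after their values were seen.

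Of 12 members on a list of kidney tubule carriers, ctrl 4 and ctrl 9 held the 2 lowest ctrl values for 7 and the 2 highest for 2. The other 3 showed neither. Both slc5a1 and slc15a2 were highest in ctrl 9, at 81.7 and 91.2 CPM, but 20.5 and 72.2 CPM in ctrl 4. The third, slc5a2, was 5.75 CPM in ctrl 4 and 16.98 CPM in ctrl 9. The neutral amino acid carrier slc6a19a.1 (B0AT1) ran from 118.1 to 207.6 CPM in actl6a libraries, and was 21.1 and 13.03 CPM in ctrl 4 and ctrl 9 and 164.8 to 232.2 CPM in the other 8 ctrl libraries. The glucose carrier slc2a2 (GLUT2) ran from 122.3 to 188.5 CPM in actl6a libraries, and was 7.67 and 38.3 CPM in ctrl 4 and ctrl 9 and 129.6 to 184.4 CPM in the other 8. The organic ion carrier slc22a13b ran from 75.4 to 92.5 CPM in actl6a libraries, and was 2.56 and 1.19 CPM in ctrl 4 and ctrl 9 and 44.8 to 84.8 CPM in the other 8. So each of these carriers was at its usual level in 8 ctrl libraries and far under it in a pair of them. The phosphate carrier slc34a1a ran from 9.82 to 81.1 CPM in actl6a libraries, with 2 of them (actl6a 5 and actl6a 8) at 9.82 and 14.3 CPM, and was 3.196 and 6.32 CPM in that ctrl pair and 38.5 to 75.3 CPM in the other ctrl libraries. In 17 of the 36 members the higher of ctrl 4 and ctrl 9 was at most 0.5 times the lowest other ctrl library, and in 10 of the 36 an actl6a library was as low as the higher of that pair.

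The 21 members that were highest in ctrl 4 and ctrl 9 included the distal cotransporters. The thiazide-sensitive NaCl cotransporter slc12a3 ran from 75.4 to 375.3 CPM in actl6a libraries, and was 777.8 and 544.2 CPM in ctrl 4 and ctrl 9 and 220.7 to 497.9 CPM in the other ctrl libraries. The Na-K-2Cl cotransporter slc12a1 ran from 55.9 to 99.4 CPM in actl6a libraries, and was 226.9 and 179.7 CPM in that pair and 72.5 to 136.0 CPM in the others. A gene that is no solute carrier was also low in both. The megalin gene lrp2a, an endocytic receptor of proximal tubule cells, ran from 107.0 to 188.1 CPM in actl6a libraries, was 8.31 and 11.1 CPM in ctrl 4 and ctrl 9, and 125.6 to 254.5 CPM in the other 8. The GFP driver gene atp1a1a.4 stood apart in ctrl 4 and not in ctrl 9: the values were 1090 to 1508 CPM in actl6a libraries, 2468 and 1604 CPM in ctrl 4 and ctrl 9, and 1343 to 1650 CPM in the other 8. In bulk fragments, fewer cells of a type and less RNA per cell cannot be told apart, and ctrl 4 also had the lowest total, 1564673 counts, while ctrl 9 had 2532215. Their part in these values was not tested.

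**Figure D2:**
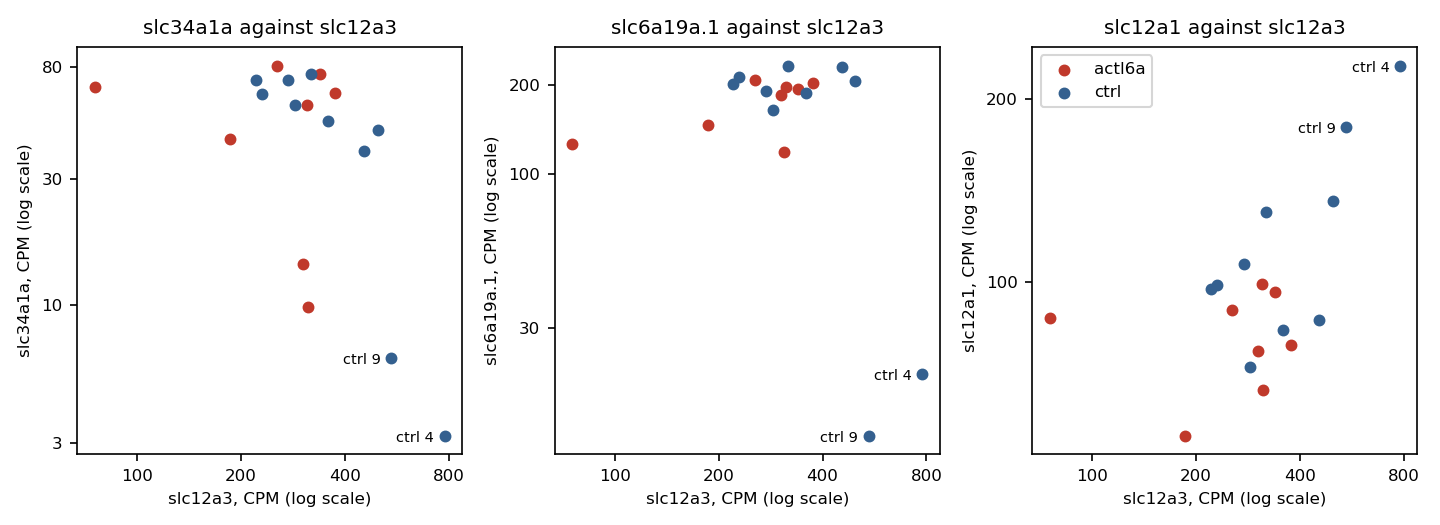
Levels of slc34a1a, slc6a19a.1 and slc12a1 (y axes, CPM, log scale) against slc12a3 (x axis, CPM, log scale) in each library, actl6a in red and ctrl in blue. Libraries ctrl 4 and ctrl 9 lie at the right of each panel, at the bottom for slc34a1a and slc6a19a.1 and at the top for slc12a1.

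Leaving out both of these libraries changed the counts little and the members more. Without them 12 members were higher and 17 lower in edgeR's test, with 1152 accessions higher and 1135 lower of 14272 tested in all. Of the 26 calls, 18 were kept, 8 were lost with adjusted p from 0.0517 to 0.0795, and 11 members were newly called, 3 higher and 8 lower. The glutamine carrier slc38a5b shows the effect: it ran from 226.4 through 262.9 to 285.9 CPM in actl6a libraries, and was 179.0 and 169.8 CPM in ctrl 4 and ctrl 9 and 321.6 to 384.6 CPM in the other 8. All 8 actl6a libraries thus lay between that pair and the rest of the ctrl group. Its log2 fold change was −0.21 ± 0.142 (adjusted p = 0.330) over all libraries and −0.36 ± 0.0650 (adjusted p = 0.00164) without the pair, both in edgeR. Leaving out its 2 lowest ctrl values must raise the ctrl mean and narrow the ctrl spread. That p is therefore not read as a separate test. Of the 36 members lowest in the pair, 1 was called lower over all libraries and 6 without it, and 1 and 3 were called higher. Of the 21 members highest in it, 3 and 3 were called lower, and 0 and 1 higher. Calls gained without the pair are thus partly given by its choice. Values without ctrl 4 and ctrl 9 are given below where they end a call, turn a direction or move a value by over 1.5 times. Apart from the members picked by a fixed rule on p, level and substrate group, and the tested tubule carriers, the members named below were chosen after their values were seen: slc2a1a, slc2a1b, slc7a3a, slc43a2a, slc43a2b, slc6a8, slc6a17, slc27a1a, slc25a37, slc25a32b, slc25a36a, slc16a5a, slc16a12b, slc30a5, slc40a1, slc11a2 and slc7a6os. So were slc12a10.2 and slc4a1a, which are no members.

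Among the 12 members on the list of kidney tubule carriers, 1 was called. Of all members 14.9% were called, and of all tested accessions 16.4%. With 12 members this count is not read as a result about tubule carriers. From a list of 26 tubule solute carriers, 15 accessions were tested and 12 of them are members; 2 of the 15 were higher and 0 lower in edgeR's test (5 at an unadjusted p under 0.05, 3 higher and 0 lower by DESeq2), with a median log2 fold change of 0.14. Without ctrl 4 and ctrl 9 the median of the 15 was −0.11, with 2 higher and 0 lower. That pair held the 2 lowest ctrl values for 7 of the 12 members, so the fall of the median is not read as a result. The tested accessions that are no members lie under the ctrl threshold. Such an accession passes the filter on low counts more readily when it is high in actl6a libraries. The direction of the calls among the 15 is therefore not read as a result. The distal cotransporter slc12a1 ran from 55.9 through 83.0 to 99.4 CPM in actl6a libraries and from 72.5 through 103.0 to 226.9 CPM in ctrl libraries. Each of the 8 actl6a libraries lay under the ctrl median and 2 lay under every ctrl library (log2 fold change −0.50 ± 0.192 SE, adjusted p = 0.0809; −0.23 ± 0.132 and adjusted p = 0.235 without ctrl 4 and ctrl 9, edgeR). For slc12a3 the range was 75.4 through 306.6 to 375.3 CPM in actl6a libraries and 220.7 through 337.8 to 777.8 CPM in ctrl libraries (log2 fold change −0.47 ± 0.267 SE, adjusted p = 0.237; −0.21 ± 0.240 and adjusted p = 0.593 without ctrl 4 and ctrl 9, edgeR).

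The tubule carrier that was called among the members is slc5a12, a sodium-coupled monocarboxylate carrier for lactate and related acids. It ran from 10.8 through 44.1 to 82.7 CPM in actl6a libraries and from 0 through 13.8 to 20.7 CPM in ctrl libraries. Of the 8 actl6a libraries, 7 were above every ctrl library and 1 was under the ctrl median. The log2 fold change was 1.98 ± 0.462 (SE, adjusted p = 0.00729, edgeR), and it was 1.71 ± 0.337 with an adjusted p of 0.00315 without ctrl 4 and ctrl 9. This was the largest rise among the 175 members. The other tubule carrier that was higher, slc6a19b, is no member: it ran from 4.19 through 25.6 to 61.6 CPM in actl6a libraries and from 1.85 through 5.47 to 17.6 CPM in ctrl libraries (log2 fold change 1.85, adjusted p = 0.0130, edgeR).

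The sodium-glucose and phosphate carriers did not pass the test. The intestinal and renal glucose carrier slc5a1 was 62.0 ± 24.7 CPM in actl6a libraries and 40.97 ± 19.7 CPM in ctrl libraries (SD, n = 8 and n = 10; log2 fold change 0.66 ± 0.279 SE, adjusted p = 0.109, edgeR). For slc6a19a.1 the log2 fold change was 0.13 over all libraries and −0.16 without ctrl 4 and ctrl 9. For slc2a2 it was 0.22 and −0.048, and for slc34a1a 0.14 and −0.14. For the glucose carrier slc5a9 it was 0.026 and −0.18. In each of these 4 the direction turned without the pair, and in slc5a9 and slc6a19a.1 it also turned under other alternatives. All 4 had their 2 lowest ctrl values in that pair, so a move downward was given by leaving it out. The phosphate carrier slc20a1a was 186.3 ± 58.4 CPM in actl6a libraries and 226.8 ± 61.5 CPM in ctrl libraries (SD, n = 8 and n = 10; log2 fold change −0.21 ± 0.178 SE, adjusted p = 0.454, edgeR; −0.33 without ctrl 4 and ctrl 9).

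The families slc2, slc5, slc45 and slc50, grouped here as sugar carriers, had 20 members. In every substrate group the family number alone placed a member, and not all of these 20 carry sugars. Counts of calls in a group or family stand beside 7.9% higher and 8.52% lower over all tested accessions. No such count is read as a trait of its group or family. Of the 20 members 2 were higher, 1 was lower and 14 had a log2 fold change above 0 (median 0.30). Without ctrl 4 and ctrl 9 the median was 0.13, with 3 higher and 2 lower. Besides slc5a12, which belongs to slc5 by sequence although it carries monocarboxylates, slc50a1 was higher. This member of the SWEET sugar carriers ran from 18.5 through 32.4 to 49.8 CPM in actl6a libraries and from 11.3 through 16.04 to 31.6 CPM in ctrl libraries. All 8 actl6a libraries were above the ctrl median and 4 were above every ctrl library (log2 fold change 0.81 ± 0.242 SE, adjusted p = 0.0275, edgeR; not called without actl6a 1, 3 or 6, adjusted p up to 0.0573). The GLUT1 genes slc2a1a and slc2a1b are duplicates of a common ancestor. Of them slc2a1b was lower, at 56.4 ± 6.67 CPM in actl6a libraries and 76.6 ± 16.2 CPM in ctrl libraries (SD, n = 8 and n = 10; log2 fold change −0.36 ± 0.121 SE, adjusted p = 0.0477, edgeR). The call was lost in 14 of 18 fits that each left out 1 library and without both ctrl 4 and ctrl 9 (log2 fold change −0.32, adjusted p = 0.0795). The log2 fold change of slc2a1a was 0.37 ± 0.318 (SE, adjusted p = 0.457, edgeR), or 0.13 without ctrl 4 and ctrl 9, and the difference between the duplicates was not tested.

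Amino acid carriers had 31 members, of which 1 was higher and 4 were lower (median log2 fold change 0.070). Without ctrl 4 and ctrl 9 the median was −0.023, with 2 higher and 3 lower. The one that was higher is slc7a7 (y+LAT1), which carries cationic and neutral amino acids across the basolateral membrane of epithelia. It ran from 50.3 through 76.1 to 91.7 CPM in actl6a libraries and from 5.75 through 46.03 to 67.7 CPM in ctrl libraries. Each of the 8 actl6a libraries was above the ctrl median, 6 of them above every ctrl library (log2 fold change 0.90 ± 0.267 SE, adjusted p = 0.0275, edgeR; not called without actl6a 5 or 8).

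The cationic amino acid carriers slc7a3a and slc7a3b, duplicates of a common ancestor, were both lower, the only one of 14 duplicate pairs among the members with a call on every accession. For slc7a3b the range was 11.6 through 27.8 to 37.9 CPM in actl6a libraries and 27.3 through 51.5 to 70.3 CPM in ctrl libraries. All 8 actl6a libraries were under the ctrl median and 4 were under every ctrl library (log2 fold change −0.92 ± 0.234 SE, adjusted p = 0.0119, edgeR). For slc7a3a the means were 90.8 ± 24.4 CPM in actl6a libraries and 125.2 ± 19.3 CPM in ctrl libraries (SD, n = 8 and n = 10; log2 fold change −0.39 ± 0.128 SE, adjusted p = 0.0439, edgeR). That call was lost in 11 of the 18 fits without 1 library and without both ctrl 4 and ctrl 9 (adjusted p = 0.0540).

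The slc43 family, which holds the large neutral amino acid carriers LAT3 and LAT4, had 2 of 5 accessions lower. Of these slc43a2a ran from 50.3 through 68.3 to 107.0 CPM in actl6a libraries and from 82.6 through 102.8 to 186.6 CPM in ctrl libraries, and 7 of 8 actl6a libraries were under every ctrl library (log2 fold change −0.55 ± 0.157 SE, adjusted p = 0.0226, edgeR). Its duplicate slc43a2b is counted under 2 accessions, of which XM_009305270.3 was lower (log2 fold change −0.30 ± 0.103 SE, adjusted p = 0.0499, edgeR) and NM_001008585.1 was not called (−0.16 ± 0.117, adjusted p = 0.364; −0.093 without ctrl 4 and ctrl 9). The first call was lost in 12 of the 18 fits without 1 library and without both ctrl 4 and ctrl 9 (adjusted p = 0.0711). Summed, slc43a2b was 304.6 ± 48.01 CPM in actl6a libraries and 382.1 ± 42.0 CPM in ctrl libraries (SD, n = 8 and n = 10; −0.25 ± 0.0826, adjusted p = 0.0433, edgeR). Of the neurotransmitter and amino acid family slc6, 0 of 9 members were called in edgeR's test (1 at an unadjusted p under 0.05, 0 by DESeq2), with a lowest log2 fold change of −0.34 (slc6a8, creatine; −0.16 without ctrl 4 and ctrl 9) and a highest of 0.84 (slc6a17).

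Carriers of vitamins, choline, haem, fatty acids and acetyl-CoA had 14 members, of which 1 was higher and 3 were lower (median log2 fold change −0.28, 10 of 14 below 0). The reduced folate carrier slc19a1 ran from 27.1 through 46.1 to 84.2 CPM in actl6a libraries and from 8.31 through 18.9 to 42.5 CPM in ctrl libraries. Each of the 8 actl6a libraries was above the ctrl median and 5 were above every ctrl library (log2 fold change 1.34 ± 0.286 SE, adjusted p = 0.00410, edgeR). This call was kept in each of the 18 fits without 1 library, with log2 fold changes of 1.18 to 1.54.

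Both fatty acid transport proteins among the members were lower, beside 8.52% of all tested accessions. With so few members this is not read as a trait of the family. For slc27a4 the range was 25.7 through 36.8 to 53.9 CPM in actl6a libraries and 36.7 through 58.1 to 85.0 CPM in ctrl libraries, with all 8 actl6a libraries under the ctrl median (log2 fold change −0.62 ± 0.157 SE, adjusted p = 0.0121, edgeR). For slc27a1a the means were 65.5 ± 12.6 CPM in actl6a libraries and 86.3 ± 9.28 CPM in ctrl libraries (SD, n = 8 and n = 10; log2 fold change −0.32 ± 0.101 SE, adjusted p = 0.0361, edgeR). That call was lost in 8 of the 18 fits without 1 library and without both ctrl 4 and ctrl 9 (adjusted p = 0.0657). The haem carrier slc48a1b (HRG1) ran from 48.9 through 59.7 to 76.0 CPM in actl6a libraries and from 60.8 through 87.9 to 95.2 CPM in ctrl libraries. All 8 actl6a libraries were under the ctrl median (log2 fold change −0.41 ± 0.0924 SE, adjusted p = 0.00622, edgeR).

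Mitochondrial carriers of the slc25 family had 37 members, of which 1 was higher and 3 were lower (median log2 fold change −0.10), and 5 were lower without ctrl 4 and ctrl 9. The one that was higher is slc25a38a, the glycine carrier that feeds haem synthesis. It ran from 17.7 through 28.5 to 58.1 CPM in actl6a libraries and from 2.73 through 11.6 to 25.2 CPM in ctrl libraries, and 5 of 8 actl6a libraries were above every ctrl library (log2 fold change 1.43 ± 0.371 SE, adjusted p = 0.0135, edgeR). The erythroid iron carrier slc25a37 (mitoferrin 1), on the list of carriers known from other tissues, was 19.6 ± 8.33 CPM in actl6a libraries and 19.4 ± 11.4 CPM in ctrl libraries (SD, n = 8 and n = 10). Its log2 fold change was 0.10 ± 0.323 (SE, adjusted p = 0.862, edgeR). Another erythroid gene of that list, slc4a1a, averaged 15.1 CPM in actl6a libraries and 9.51 CPM in ctrl libraries (log2 fold change 0.76, adjusted p = 0.461, edgeR). The blood list had a median log2 fold change of 1.36 with 0 of 11 genes called in edgeR's test. So slc25a37 alone is not read as a measure of blood RNA.

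The folate carrier slc25a32a, known in other vertebrates for moving folate and FAD into mitochondria, had the lowest p of the whole set. It ran from 39.4 through 48.6 to 55.4 CPM in actl6a libraries and from 54.6 through 73.9 to 93.9 CPM in ctrl libraries, so that 7 of 8 actl6a libraries were under every ctrl library. The log2 fold change was −0.57 ± 0.110 (SE, adjusted p = 0.00220, edgeR). With marker scores as covariates it was −0.29 and not called (adjusted p = 0.514). Its duplicate slc25a32b was not called (log2 fold change −0.15 ± 0.368 SE). The pyrimidine nucleotide carrier slc25a36a was 117.5 ± 12.3 CPM in actl6a libraries and 152.1 ± 22.6 CPM in ctrl libraries (SD, n = 8 and n = 10; log2 fold change −0.28 ± 0.0948 SE, adjusted p = 0.0457, edgeR). In 12 of the 18 fits without 1 library that call was lost, as it was in the fit without ctrl 4 and ctrl 9 (adjusted p = 0.0784).

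One mitochondrial carrier, slc25a14 (UCP5), was the only member whose groups did not overlap, its actl6a libraries all being below ctrl. Over all tested accessions 1.2% had every actl6a library below ctrl and 0.733% had every one above, and among those at 10 CPM or more in ctrl the shares were 1.52% and 0.634%; 0 members had every actl6a library above. Its accession XM_017352756.2 ran from 17.9 through 45.9 to 54.8 CPM in actl6a libraries and from 56.5 through 75.4 to 100.3 CPM in ctrl libraries (log2 fold change −0.80 ± 0.171 SE, adjusted p = 0.00425, edgeR). The gene is also counted under NM_200164.2, and that accession had 58, 71 and 67 counts in actl6a 2, 5 and 8, 1 to 9 counts in the other 5 actl6a libraries and 1 to 5 counts in each ctrl library. Reads on slc25a14 were thus placed on a second accession in 3 actl6a libraries. With both accessions summed the gene was 54.8 ± 11.2 CPM in actl6a libraries and 77.6 ± 14.9 CPM in ctrl libraries (SD, n = 8 and n = 10), the groups overlapped, and the log2 fold change was −0.42 ± 0.141 (SE, adjusted p = 0.0479, edgeR).

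**Figure D3:**
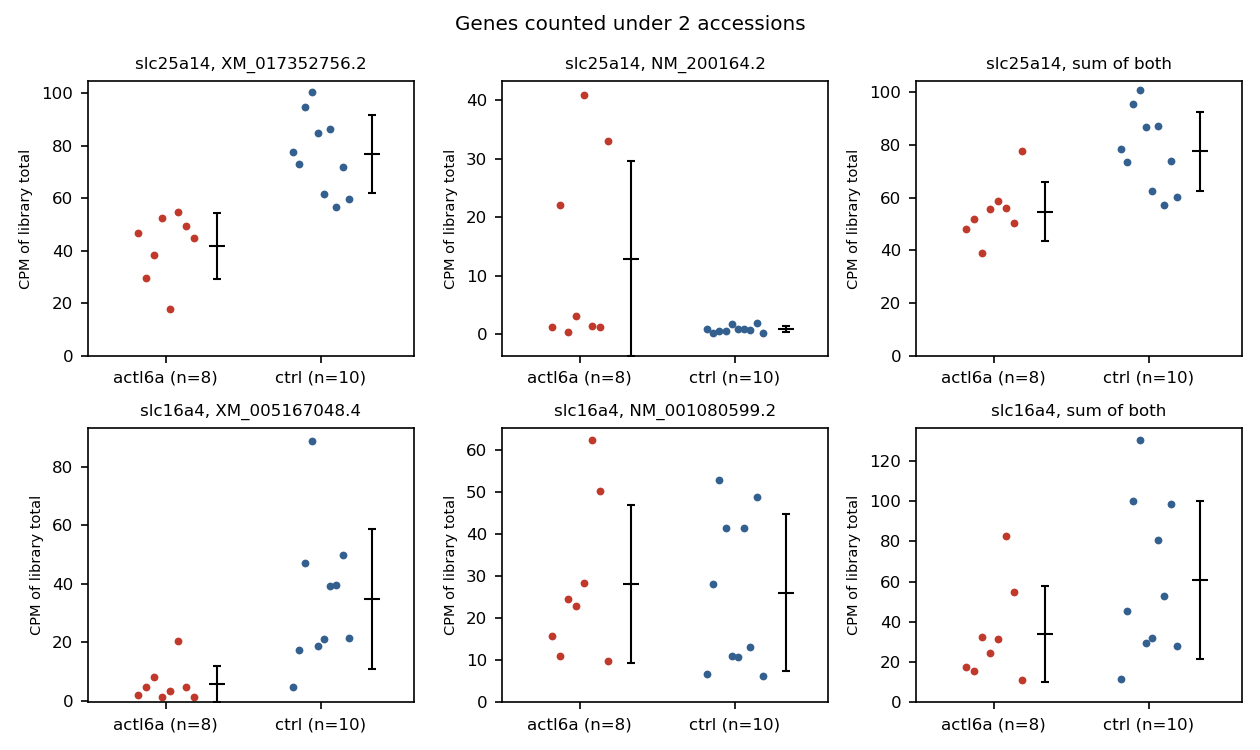
CPM of library total per library for slc25a14 (top) and slc16a4 (bottom), by accession and summed, with actl6a (red, n = 8) left of ctrl (blue, n = 10); the black cross and bar are the mean and SD. The accession NM_200164.2 of slc25a14 is high in 3 actl6a libraries, and the sums overlap more between the groups than the first accession does.

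Monocarboxylate carriers of the slc16 family had 11 members, of which 1 was higher and 2 were lower (median log2 fold change 0.18). Without ctrl 4 and ctrl 9 the median was 0.029, with 1 higher and 1 lower. The largest fall of the whole set was on XM_005167048.4 of slc16a4, a family member whose substrate is not settled. It ran from 1.42 through 4.02 to 20.3 CPM in actl6a libraries and from 4.82 through 30.4 to 88.8 CPM in ctrl libraries, and all 8 actl6a libraries were under the ctrl median (log2 fold change −2.51 ± 0.540 SE, adjusted p = 0.00428, edgeR). It was the member called lower with marker scores as covariates (adjusted p = 0.0111). The other accession of the gene, NM_001080599.2, was 28.2 ± 18.8 CPM in actl6a libraries and 26.1 ± 18.6 CPM in ctrl libraries (SD, n = 8 and n = 10; log2 fold change 0.18 ± 0.445 SE, adjusted p = 0.827, edgeR; 0.47 without ctrl 4 and ctrl 9). With both summed, slc16a4 was not called (log2 fold change −0.78 ± 0.413 SE, adjusted p = 0.209, edgeR), so the fall is one of an accession and was not found for the gene as a whole.

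The family also held slc16a5a, which was 35.5 ± 12.9 CPM in actl6a libraries and 19.9 ± 9.84 CPM in ctrl libraries (SD, n = 8 and n = 10; log2 fold change 0.91 ± 0.293 SE, adjusted p = 0.0386, edgeR). The call was lost in 11 of the 18 fits without 1 library. The creatine carrier slc16a12b was 75.9 ± 16.98 CPM in actl6a libraries and 106.2 ± 14.3 CPM in ctrl libraries (SD, n = 8 and n = 10; log2 fold change −0.40 ± 0.123 SE, adjusted p = 0.0299, edgeR). Its call was lost without actl6a 1, 2 or 3 (adjusted p up to 0.0617) and without both ctrl 4 and ctrl 9 (adjusted p = 0.0571). With marker scores as covariates the log2 fold change was −0.051 (adjusted p = 0.919).

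Among ion carriers, 2 members had large falls from levels that varied widely between ctrl libraries. The potassium-dependent sodium-calcium exchanger slc24a2 ran from 3.43 through 11.4 to 22.1 CPM in actl6a libraries and from 13.03 through 32.8 to 100.3 CPM in ctrl libraries. Each of the 8 actl6a libraries was under the ctrl median and 5 were under every ctrl library (log2 fold change −1.75 ± 0.398 SE, adjusted p = 0.00618, edgeR). Its 2 highest ctrl libraries were ctrl 4 and ctrl 9, and without them the log2 fold change was −1.29 ± 0.348 (adjusted p = 0.0182, edgeR).

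The NaCl cotransporter gene slc12a10.3 is a fish relative of slc12a3. It ran from 0.381 through 5.79 to 12.1 CPM in actl6a libraries and from 1.59 through 30.5 to 114.1 CPM in ctrl libraries, where ctrl 1 and ctrl 10 were under 2 CPM. The groups overlapped through the lowest ctrl libraries (log2 fold change −2.47 ± 0.712 SE, adjusted p = 0.0232, edgeR). Without ctrl 4 and ctrl 9 the call was lost (log2 fold change −2.001 ± 0.699, adjusted p = 0.0586), and over the alternatives its adjusted p ran from 0.00147 to 0.341. A related gene known from skin ionocytes, slc12a10.2, was at 0 in every actl6a library and at a mean of 0.744 CPM in ctrl libraries, with at most 16 counts in a library. The ionocyte markers foxi3a, foxi3b and trpv6 averaged 3.54, 1.31 and 4.16 CPM in actl6a libraries. In ctrl libraries they averaged 3.84, 1.51 and 3.76 CPM. So slc12a10.2 is not read as a measure of ionocytes.

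**Figure D4:**
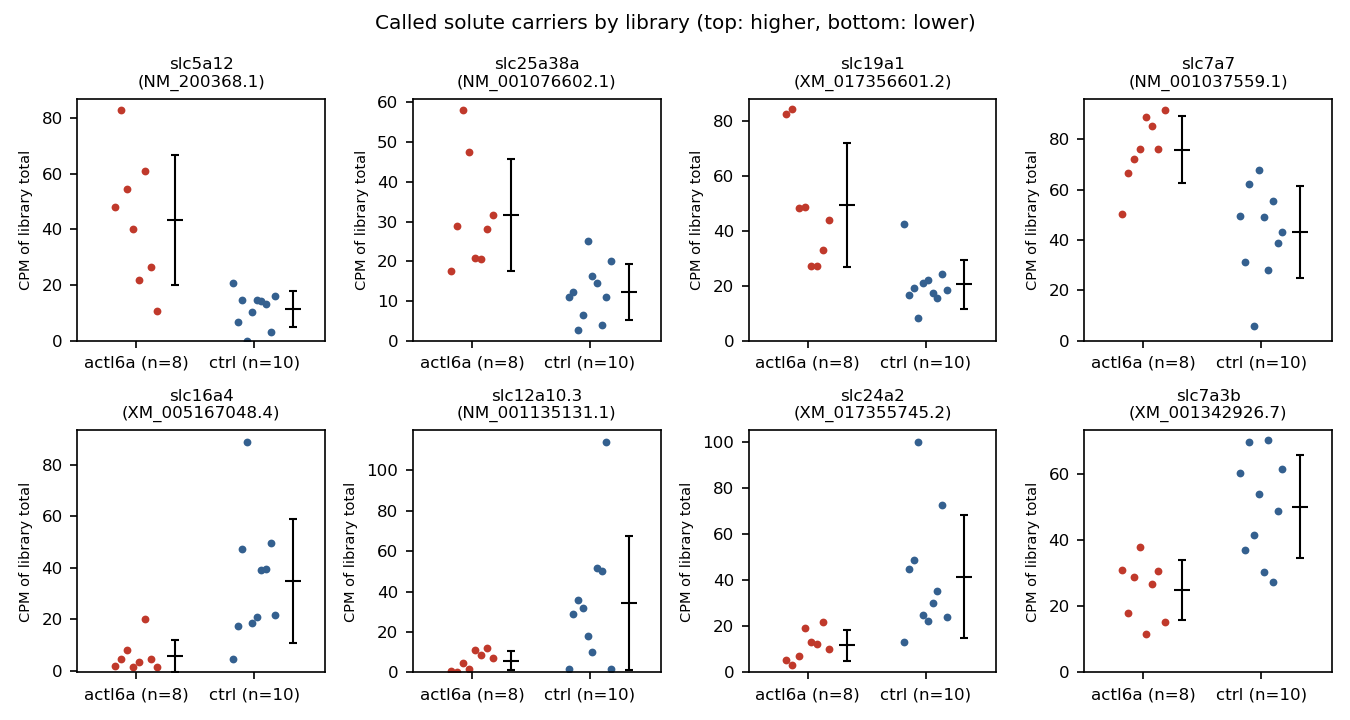
CPM of library total in each library for 4 solute carriers called higher (top row) and 4 called lower (bottom row), actl6a (red, n = 8) left of ctrl (blue, n = 10); the black cross and bar are the mean and SD. In the top row most actl6a points lie above the ctrl mean, and in the bottom row the actl6a points lie low while ctrl points spread widely.

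For the remaining groups, the counts of calls stand beside 16.4% called over all tested accessions. These counts are not read as traits of the groups. Metal ion carriers had 0 of 13 called in edgeR's test, 3 at an unadjusted p under 0.05 and 1, lower, by DESeq2. Among them were 6 zinc importers of slc39, 3 zinc carriers of slc30, the iron exporter slc40a1 and the iron importer slc11a2. Of these, slc30a5 was 79.6 ± 8.01 CPM in actl6a libraries and 83.7 ± 4.07 CPM in ctrl libraries (SD, n = 8 and n = 10), and slc40a1 was 72.7 ± 11.1 CPM in actl6a libraries and 73.4 ± 10.5 CPM in ctrl libraries. The zinc carrier slc39a3 was the only uncalled member with a log2 fold change of at least 1 in size (−1.69 ± 0.693 SE, adjusted p = 0.101, edgeR). It was at most 8.84 CPM in actl6a libraries. In ctrl libraries it was 70.4 CPM in ctrl 1, 32.4 CPM in ctrl 9 and 17.9 CPM in ctrl 4, and the ctrl median was 5.82 CPM.

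Carriers of nucleosides and nucleotide sugars had 16 members with 2 higher and 0 lower, both in slc35, the family of nucleotide sugar carriers. For slc35e3 the range was 9.24 through 18.3 to 49.9 CPM in actl6a libraries and 5.11 through 9.58 to 22.5 CPM in ctrl libraries (log2 fold change 1.196 ± 0.334 SE, adjusted p = 0.0200, edgeR), and the call was lost without actl6a 2 (adjusted p = 0.0582) and with marker scores as covariates (log2 fold change 0.18, adjusted p = 0.867). For slc35f6 the means were 102.8 ± 11.7 CPM in actl6a libraries and 89.2 ± 7.49 CPM in ctrl libraries (SD, n = 8 and n = 10; log2 fold change 0.29 ± 0.0871 SE, adjusted p = 0.0303, edgeR). That call was lost without actl6a 3, 5 or 8 and without both ctrl 4 and ctrl 9 (adjusted p = 0.0517).

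Carriers of phosphate, sulfate and carboxylates had 1 of 8 members higher, the citrate carrier slc13a5a, at 89.1 ± 13.7 CPM in actl6a libraries and 70.7 ± 16.4 CPM in ctrl libraries (SD, n = 8 and n = 10; log2 fold change 0.41 ± 0.138 SE, adjusted p = 0.0471, edgeR). Of the 18 fits without 1 library, 14 lost it. Carriers of organic ions, bile salts and peptides had 1 of 11 higher, slc10a7 of the bile acid carrier family, at 72.7 ± 9.87 CPM in actl6a libraries and 58.2 ± 8.85 CPM in ctrl libraries (SD, n = 8 and n = 10; log2 fold change 0.40 ± 0.117 SE, adjusted p = 0.0236, edgeR). All 8 actl6a libraries were above the ctrl median for slc10a7, and the call was lost without actl6a 3 or 5. The 3 bicarbonate and anion exchangers of slc26 were not called, 1 having an unadjusted p under 0.05 in edgeR and 0 a call by DESeq2. The member slc67a1, in no substrate group, ran from 40.4 through 50.4 to 70.1 CPM in actl6a libraries and from 65.8 through 86.2 to 107.1 CPM in ctrl libraries, with 6 of 8 actl6a libraries under every ctrl library (log2 fold change −0.62 ± 0.120 SE, adjusted p = 0.00225, edgeR).

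The calls differed in how far they rested on single libraries. Of the 26, 13 were kept in all 18 fits that left out 1 library: slc5a12, slc19a1 and slc25a38a among the higher ones, and slc12a10.3, slc16a4, slc24a2, slc25a14, slc25a32a, slc27a4, slc43a2a, slc48a1b, slc67a1 and slc7a3b among the lower ones. For slc16a4 and slc25a14 this holds for 1 accession each. With both accessions summed, slc16a4 was not called (adjusted p = 0.209, edgeR) and slc25a14 was called at an adjusted p of 0.0479 (edgeR). The other 13 each lost the call in at least 1 such fit, with highest adjusted p-values of 0.0570 to 0.0943. The fit with marker scores as covariates lost 25 of the 26 calls, with adjusted p from 0.0794 to 0.993. The lists behind the scores had median log2 fold changes of 0.36 (muscle), 1.36 (blood), 1.33 (epidermis) and 0.95 (neural), so scores and group overlap. All accessions called fell from 2375 to 81, so a lost call cannot be told from lost power. For slc7a3b the log2 fold change stayed at −0.92 while the adjusted p rose from 0.0119 to 0.319 (edgeR). In the fit with marker scores 11 of the 26 log2 fold changes were smaller by over 1.5 times. Besides slc35e3, slc25a32a and slc16a12b, these were slc16a5a at −0.017, slc50a1 at 0.33, slc2a1b at −0.13, slc27a1a at −0.092, slc25a36a at −0.10, slc43a2b (XM_009305270.3) at −0.13, slc43a2a at −0.32 and slc24a2 at −0.9997. In the same fit slc16a4 (XM_005167048.4) at −3.80 and slc48a1b at −0.65 were larger by over 1.5 times, and the other 13 moved by less. Of the 10 calls in the higher direction, 5 were of members with a ctrl mean under 20 CPM, and of the 16 in the lower direction 0 were, the lowest ctrl mean among them being 34.4 CPM. The same split was not counted over all tested accessions, so it is not read as a trait of the solute carriers. Within the groups, the median coefficient of variation of the members was 27.3% in actl6a libraries and 31.5% in ctrl libraries, and it was over 50% for 35 members in actl6a libraries and 39 in ctrl libraries.

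Limits of naming and counting touch some members. In the reference gene table used for names, 66 of the 172 genes overlap another gene, and 11 of the called ones do. Of these 11, 4 overlap a protein-coding gene: slc5a12 (fibina), slc19a1 (zgc:162999), slc35f6 (mideasa) and slc67a1 (esyt2b). Whether the counting used the strand is not given in the sources used here, so reads of such pairs may be mixed. The symbol slc7a6os, which the naming rule takes in, belongs to a gene named for its place opposite the SLC7A6 gene, and not to a carrier. It was 81.8 ± 10.7 CPM in actl6a libraries and 80.4 ± 8.42 CPM in ctrl libraries (SD, n = 8 and n = 10).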

How the data were processed

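The authors deposited 2 tables of raw read counts per RefSeq accession, one for each morpholino group. The submitters' processing notes name cutadapt, FastQC, STAR, featureCounts, edgeR and the GRCz11 build, with no versions; strand use and filters are not given in the sources used here. The tables were joined on accession, an accession listed in only 1 table being taken as 0 in the other. Of 32820 accessions, 20215 matched a symbol in a RefSeq gene table of another assembly, GRCz12tu, which was used only for names and for overlapping neighbours, and 12605 matched none. Levels are CPM of the library total, and fold changes use TMM factors. The main test was edgeR 4.0.16 (R 4.3.3), its quasi-likelihood F-test on accessions kept by filterByExpr, actl6a over ctrl with no covariate, with Benjamini-Hochberg adjustment over 14462 accessions at 0.05. The SE is the absolute log2 fold change over the square root of F. Steps were tested on simulated data. There edgeR's test recovered 43% of changes with an absolute log2 fold change of 1 and 73% of those with 2. The simulation held 100 changes of each size among 14462 accessions and gave 121 calls, of which 5 were false. The data gave 2375 calls, so these shares are not carried over to them. Alternatives used DESeq2 1.42.0, limma 3.58.1 and the settings of the closing section.

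The members, gene lists and tests were chosen with earlier results of these data known. The fits without ctrl 4 and ctrl 9 and without the 4 libraries of lowest total were chosen after seeing the data. The rule for naming picked the 8 higher and 8 lower calls of lowest p, the 6 of highest ctrl level, the member of lowest p and of highest level in each substrate group, and every tested gene of the tubule list. Not every gene that it picked is described above. Of the tested tubule list, slc3a1, slc22a2 and slc9a3.1 were left out, and edgeR's test called none of them. The log2 fold change of slc3a1 was 0.50 (adjusted p = 0.385, edgeR), and it was 0.25 without ctrl 4 and ctrl 9. For slc22a2 it was 1.81 (adjusted p = 0.0576, edgeR) and for slc9a3.1 −0.30 (adjusted p = 0.741, edgeR). Of these slc22a2 and slc9a3.1 are no members. The 10 ctrl and 8 actl6a libraries were grouped by their labels, and 10 ducts a group are stated for the design. Gene lengths, a genome and sequence tables were not used here.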

Additional observations from a re-analysis of the deposited data

Results flagged for a closer look

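Of 96 checks of single groups over 48 items, 9 found a library far from the others of its group. The limit used gives about 1 in 20 for independent, normally distributed values. Most items here are CPM values of the same libraries, many of them picked by p or level. The number of flags is therefore not compared with chance. In ctrl 4, slc25a5 was at 3278 CPM with the next library at 2472, atp1a1a.4 was at 2468 CPM with the next at 1650, and slc13a5a was lowest at 30.0 CPM with the next at 62.5. In ctrl 9, slc12a10.3 was at 114.1 CPM with the next at 51.7. In ctrl 1, slc39a3 was at 70.4 CPM with the next at 32.4, slc19a1 was at 42.5 CPM with the next at 24.5, and slc48a1b was lowest at 60.8 CPM with the next at 83.6. Among actl6a libraries, actl6a 6 held 20.3 CPM of slc16a4 accession XM_005167048.4 with the next at 8.18, and actl6a 4 held 188.5 CPM of slc2a2 with the next at 149.4. The causes were not tested.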

How the results depend on the processing

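The counts of 10 members higher, 16 lower and 2375 accessions called in all moved with the processing. The number called higher was 6 without TMM factors, 4 with no filter on low counts, and 5 when members needed 20 CPM in ctrl. Marker scores as covariates gave 0 higher, 1 lower and 81 in all. The fit with the replicate number as a block gave 4 higher, 7 lower and 1040 in all; same-numbered libraries correlated at −0.119 to 0.324 and 0 of 8 actl6a libraries correlated best with their own number, so the numbers were not taken to pair the samples. Without the 4 shallowest libraries 10 were lower. Leaving out 1 library gave 5 to 11 higher and 10 to 20 lower. DESeq2 gave 13 higher and 17 lower. Of 1316 values of named genes under the alternatives, 38 changed sign, in 10 genes, of which 0 were called; among called members outside that list, slc16a5a turned to −0.017 with covariates. With covariates slc15a2 was 0.29, slc5a2 −0.96, atp1a1a.4 0.040 and slc35b1 −0.045 (log2 fold changes). Without TMM factors slc35b1 was −0.082 and slc5a9 −0.046. With no filter they were −0.025 and −0.0065, and with the block −0.074 and −0.0084. With limma-voom weights slc35b1 was −0.062, slc5a9 −0.026 and slc9a6b 0.036. Without the 4 shallowest libraries slc35b1 was −0.12 and slc6a19a.1 −0.067. Without ctrl 4 and ctrl 9, slc2a2 was −0.048, slc34a1a −0.14, slc5a9 −0.18, slc6a19a.1 −0.16 and slc9a6b 0.088. In that fit slc13a3 moved from −0.098 to −0.30 and slc35b1 from 0.0054 to 0.029, with no change of sign. Leaving out 1 library gave slc13a3 −0.30 to 0.021, slc35b1 −0.085 to 0.062, slc5a9 −0.077 to 0.078, slc6a19a.1 −0.012 to 0.20 and slc9a6b −0.16 to 0.028. The cause was not tested. SEs ran from 0.0789 to 0.734, with a median of 0.370 among members at 10 to 20 CPM in ctrl and 0.120 among those at 100 CPM or more; depth and spread between libraries were not separated.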

Other observations

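Among the 221 solute carrier accessions under the threshold, 40 passed the filter on low counts, and 5 of these were higher and 0 lower in edgeR's test. An accession low in ctrl passes that filter more readily when it is high in actl6a libraries, so the direction is not read as a result. The genes, chosen after their values were seen, include slc39a13 of the zinc carrier family, at 42.2 ± 29.7 CPM in actl6a libraries and 7.91 ± 5.34 CPM in ctrl libraries (SD, n = 8 and n = 10; log2 fold change 2.50 ± 0.512 SE, adjusted p = 0.00317, edgeR). The exchanger gene slc24a3 was 30.1 ± 23.03 CPM in actl6a libraries and 5.67 ± 3.32 CPM in ctrl libraries (SD, n = 8 and n = 10; log2 fold change 2.46 ± 0.523 SE, adjusted p = 0.00410, edgeR). The amino acid carrier slc38a8b was 19.4 ± 6.99 CPM in actl6a libraries and 8.66 ± 2.67 CPM in ctrl libraries (SD, n = 8 and n = 10; log2 fold change 1.23 ± 0.258 SE, adjusted p = 0.00377, edgeR).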
